A study of Homo sapiens with 44 samples.

Results

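The 8 genes of creatine kinase and creatine supply, CKB, CKM, CKMT1A, CKMT1B, CKMT2, GATM, GAMT and SLC6A8, were followed through a cardiac differentiation of human pluripotent cells. They were chosen by symbol, matched to Ensembl identifiers through GENCODE 29, and all 8 were found among the 60499 gene identifiers measured. All 8 also passed the filter on low counts, which left 22955 genes for testing.

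Creatine kinases move a phosphate group between ATP and creatine, so that cells with high or sudden energy use can hold a reserve as phosphocreatine and carry it from mitochondria to sites of ATP use. CKB is the brain-type and CKM the muscle-type cytosolic enzyme. CKMT1A and CKMT1B are neighbouring copies that encode the ubiquitous mitochondrial enzyme, and CKMT2 encodes the sarcomeric mitochondrial enzyme of heart and skeletal muscle. Creatine itself is made by GATM, which joins arginine and glycine to guanidinoacetate, and by GAMT, which methylates that product, and it enters cells through the transporter SLC6A8. In developing striated muscle, including the heart, the brain-type enzyme is known to give way to the muscle-type one.

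All cells came from the H1 line of human embryonic stem cells, which is established and widely used, and 44 wells were sequenced, 1 library per well. Pluripotent cells on laminin LN-521 alone gave 3 libraries. All other groups grew on LN-521 with LN-221: day 0, 1 and 3 (3 libraries each), day 5, 7, 9 and 11 (5 each) and day 14, 20, 30 and 90 (3 each). Day 0 cells were in Nutristem. CHIR99021, an inhibitor of the kinase GSK3, was then added in RPMI 1640 with B27 lacking insulin, and the groups of day 1 and day 3 were taken from that stage. IWP2, an inhibitor of Wnt secretion, was added at day 3 and preceded the day 5 group. Cells of day 7 and day 9 were in RPMI 1640 with insulin-free B27, and those of day 11 to day 90 in CTS B-27. The differentiation is of 1 cell line, and no untreated culture of matched age was analysed here. The replicates were separate wells, with no statement that they came from separate differentiations, so the p-values measure the spread between these wells, which may in part be technical.

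Library totals ran from 6937136 to 33498022 estimated counts, and RNA integrity numbers from 7.4 to 10. Levels of 1 gene are given below in CPM (read counts scaled to library size, here after TMM scaling), and shares between genes in TPM, which also corrects for gene length. The scale of TPM against CPM also differed between wells. CKB was at 78.9 TPM and 225 CPM in day 9 replicate 1, and at 199 TPM and 198 CPM in day 9 replicate 4. Fold changes of 1 gene can thus differ between CPM and TPM, and ranges apart in one can overlap in the other. A count of 3 corresponded to 0.0896 to 0.432 CPM. The summed TPM of 6 cardiomyocyte markers went from 14.1 to 21.7 at day 0 to between 1427 and 7096 at day 9 and between 4814 and 10669 at day 90. A list of 7 skeletal muscle markers never summed to more than 2.52 TPM in any library. Within that list MYF5 was listed at 0 in every library of day 14 to day 90, whereas MYOG was called higher from day 0 to day 9 and again to day 90 (edgeR adjusted p = 0.0190 and 0.00100), where it reached at most 0.41 TPM. In bulk libraries, fewer cells of a type and less RNA per cell cannot be told apart.

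The 5 kinases were compared first in their coding sequence, because it decides how well reads separate them. The lines below show 25 codons of each from the GENCODE 29 transcripts on GRCh38, 5′ to 3′, with the codon of the active-site cysteine in capitals. It is codon 283 in CKB and CKM, 316 in CKMT1A and CKMT1B, and 317 in CKMT2.
CKB: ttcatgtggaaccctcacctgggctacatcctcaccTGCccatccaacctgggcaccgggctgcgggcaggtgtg
CKM: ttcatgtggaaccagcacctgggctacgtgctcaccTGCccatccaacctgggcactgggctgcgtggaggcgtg
CKMT1A: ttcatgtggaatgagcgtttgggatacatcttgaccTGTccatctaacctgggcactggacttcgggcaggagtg
CKMT1B: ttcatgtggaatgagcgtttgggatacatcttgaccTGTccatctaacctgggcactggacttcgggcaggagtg
CKMT2: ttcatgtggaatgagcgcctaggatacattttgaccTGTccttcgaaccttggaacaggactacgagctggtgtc
Each stretch was cut to hold the cysteine codon at its centre. CKB and CKM differed at 8 of these 75 bases, CKMT1A and CKMT2 at 14, and CKM and CKMT2 at 22, whereas CKMT1A and CKMT1B did not differ. Over the whole coding sequence, CKB and CKM were 78.8% identical, and no 150-base window of the CKM transcript, the length of 1 read, occurred in the CKB transcript. CKMT1A and CKMT1B differed at 2 of 1254 coding bases and shared 1133 of the 1762 such windows of the CKMT1A transcript (64.3%). How reads were split between these copies was an estimate made by the authors' counting, so each copy's own value is uncertain and their sum is given beside them.

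On GRCh38, CKB (ENSG00000166165) lies on the minus strand at chr14:103519659-103523111 and CKM (ENSG00000104879) on the minus strand at chr19:45306414-45322977. CKMT1B (ENSG00000237289) and CKMT1A (ENSG00000223572) lie on the plus strand at chr15:43593054-43604901 and chr15:43692886-43699222, and CKMT2 (ENSG00000131730) on the plus strand at chr5:81233285-81266397. GATM (ENSG00000171766) is on the minus strand at chr15:45361124-45402327, GAMT (ENSG00000130005) on the minus strand at chr19:1397026-1401570 and SLC6A8 (ENSG00000130821) on the plus strand at chrX:153688099-153696593. CKMT2, CKMT1B, GATM and SLC6A8 each overlap a gene on the other strand (CKMT2-AS1, STRC, AC025580.3 and PNCK). The libraries were stranded, but whether the counting used strand was not given in the sources used here, so reads of these 4 members and of their partners may not be fully separated. CKMT2-AS1 stood at 1.00 to 4.92 TPM over the 44 libraries and PNCK at 0.770 to 24.7 TPM.

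The muscle-type kinase CKM went from low levels before day 7 to its highest at day 90. It stood at 0.643, 1.13 and 0.656 CPM in the pluripotent wells, at 0.571, 1.03 and 0.794 at day 0, and at 0.539, 0.257 and 1.12 at day 1. The day 3 wells held 1.63, 1.94 and 3.06 CPM and the day 5 wells 0.542, 0.838, 1.24, 2.00 and 1.26. All these early wells were low, and the highest of them stood at 3.06 CPM against 26.3 in the lowest well of the later groups. At day 7 CKM was at 44.4, 96.5, 26.3, 31.8 and 40.5 CPM, and at day 9 at 116, 177, 69.4, 99.96 and 81.6. Day 11 fell into 2 ranges, with 81.4 and 49.0 in replicates 1 and 2 and 380, 343 and 413 in replicates 5, 6 and 7. CKM was then at 84.7, 149 and 227 CPM at day 14, at 277, 157 and 293 at day 20, at 372, 342 and 213 at day 30, and at 634, 957 and 585 at day 90. The day 90 wells lay above those of every other group, and the mean at day 90 was 1135-fold that at day 1, the lowest group. In TPM the same means differed 558-fold, and the day 90 wells (118, 232 and 101) overlapped those of day 14, day 20 and day 30.

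From day 5 to day 7 CKM rose by 5.35 on the log2 scale (SE 0.52, a 40.8-fold change, adjusted p = 1.09e-09 by edgeR's quasi-likelihood test with Benjamini-Hochberg adjustment over all tested genes). It was 1 of 2 members called at that step, where a call needs an adjusted p under 0.05 and a log2 change of at least 1, and where 3.65% of all genes were called. The rise from day 1 to day 3 was smaller, 1.77 (SE 0.67, edgeR adjusted p = 0.0433). Leaving out day 1 replicate 1 or 2, or day 3 replicate 2 or 3, ended that call (adjusted p from 0.0683 to 0.186), as did limma on log2 TPM (0.67, adjusted p = 0.403), and without day 1 replicate 3 the change was 2.45. The steps from day 7 to day 9 (1.18, edgeR adjusted p = 0.150) and from day 9 to day 11 (1.22, edgeR adjusted p = 0.0937) were not called. The first was called without day 7 replicate 10 (1.61, edgeR adjusted p = 0.0377), with lane as a factor (1.27, adjusted p = 0.0325) and when only these groups were fitted (1.23, adjusted p = 0.0464), and the second without day 9 replicate 10 or day 11 replicate 1 or 2 (1.45 to 1.48, adjusted p from 0.0205 to 0.0491). Over the longer spans, CKM rose by 7.08 (SE 0.70) from day 0 to day 9 and by a further 2.74 (SE 0.46) from day 9 to day 90.

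The brain-type kinase CKB covered a narrower range. Its wells were at 186, 186 and 264 CPM in the pluripotent group, 216, 242 and 229 at day 0 and 197, 195 and 221 at day 1, then 114, 112 and 99.96 at day 3 and 120, 95.4, 98.9, 61.8 and 148 at day 5. At day 7 it was back at 187, 205, 185, 184 and 220 CPM, and at day 9 at 225, 174, 206, 202 and 198, both overlapping the wells of day 0 and day 1. The later wells spread out, with 144, 95.5 and 338 CPM at day 20, 103, 49.4 and 111 at day 30, and 74.0, 69.4 and 57.9 at day 90. Day 0, the highest group, was 3.41-fold day 90, the lowest (in TPM the highest was day 14, at 6.25-fold day 90), and all 3 day 90 wells lay below all wells of day 0 to day 3.

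CKB was not called between day 0 and day 9 (log2 change -0.19), and it fell by 1.58 (SE 0.27, edgeR adjusted p = 1.23e-05) from day 9 to day 90, where the ranges did not overlap. Its decrease at day 3 (-0.91, edgeR adjusted p = 0.0147) and its return at day 7 (0.91, edgeR adjusted p = 0.00751) stayed under the log2 size of 1 that a call needs. Without day 5 replicate 5 the return was 1.06 and was called (edgeR adjusted p = 0.00304). CKB was the single member called between day 20 and day 30 (-1.13, SE 0.29, edgeR adjusted p = 0.0220), against 2.02% of all genes. That call rested on day 20 replicate 3, without which the change was -0.39 (edgeR adjusted p = 0.426), and it also ended without day 30 replicate 10 (-0.85, adjusted p = 0.124), when only these groups were fitted (-1.12, adjusted p = 0.845) and by limma on log2 TPM (-1.30, adjusted p = 0.199).

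**Figure D1:**
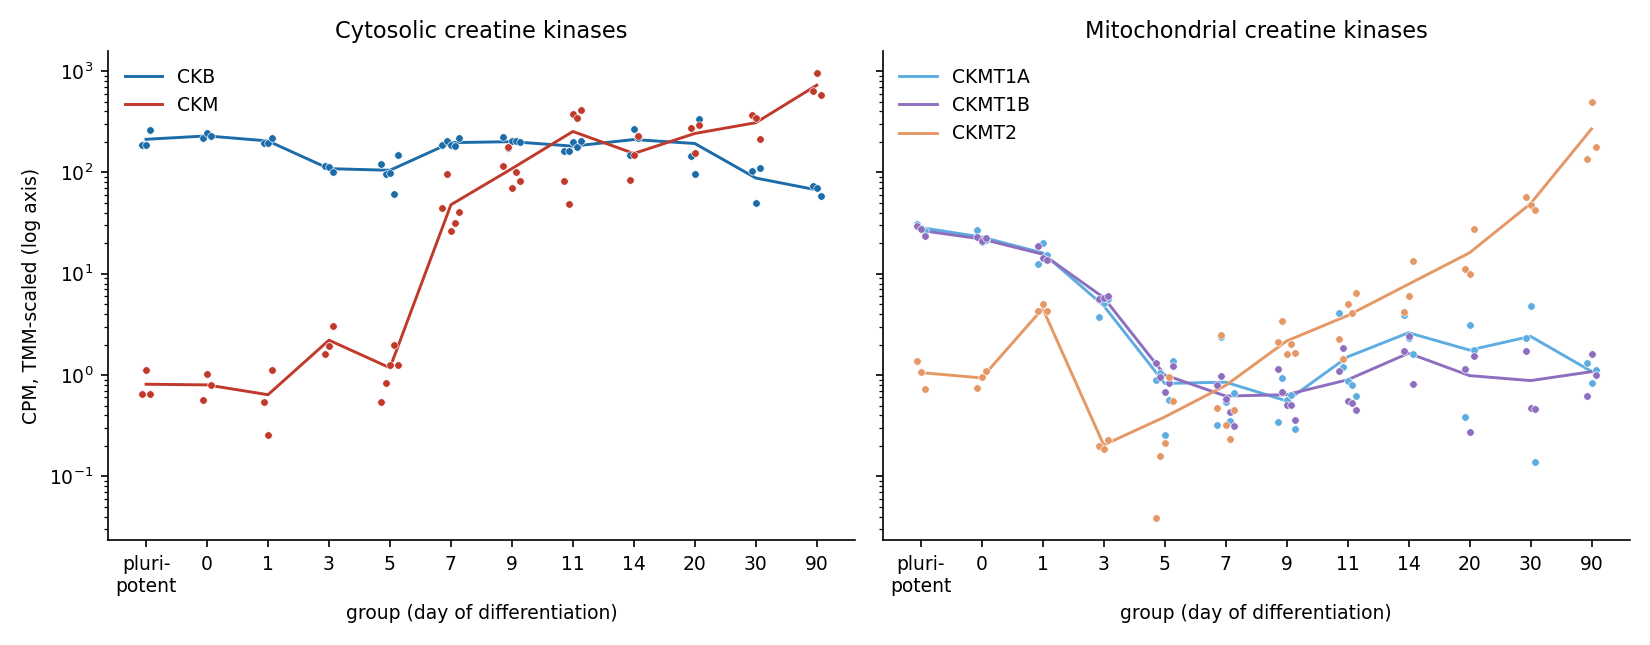
Level of each creatine kinase in all 44 libraries, with CPM after TMM scaling on a log axis against the 12 groups in order. Points are wells, lines join group means, and groups are evenly spaced. CKM and CKMT2 end far above their start, the CKMT1A and CKMT1B copies end far below theirs, and CKB stays within 1 order of magnitude.

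Per length, the cytosolic pool passed from CKB to CKM. The share of CKM in the summed TPM of CKM and CKB was 0.150%, 0.240% and 0.184% at day 0 (0.191% ± 0.0454, SD, n = 3). It was 11.2% ± 5.39 at day 7 (n = 5) and 22.2% ± 8.07 at day 9 (n = 5). At day 11 the 5 wells gave 21.6%, 14.1%, 52.7%, 51.4% and 53.9%, so that CKM exceeded CKB in 3 of 5. It exceeded CKB in 0 of 3 wells at day 14 (25.1%, 23.5% and 38.0%) and in 0 of 3 at day 20 (48.5%, 44.3% and 31.8%). At day 30 (68.4%, 79.5% and 51.4%) and day 90 (80.8%, 87.4% and 83.5%) it exceeded CKB in all 3 wells. Per length, CKM thus exceeded CKB first in single wells, at day 11, and in whole groups from day 30. In CPM, without correction for length, it already did so in 1 of 5 wells at day 9, 1 of 3 at day 14 and 2 of 3 at day 20.

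**Figure D2:**
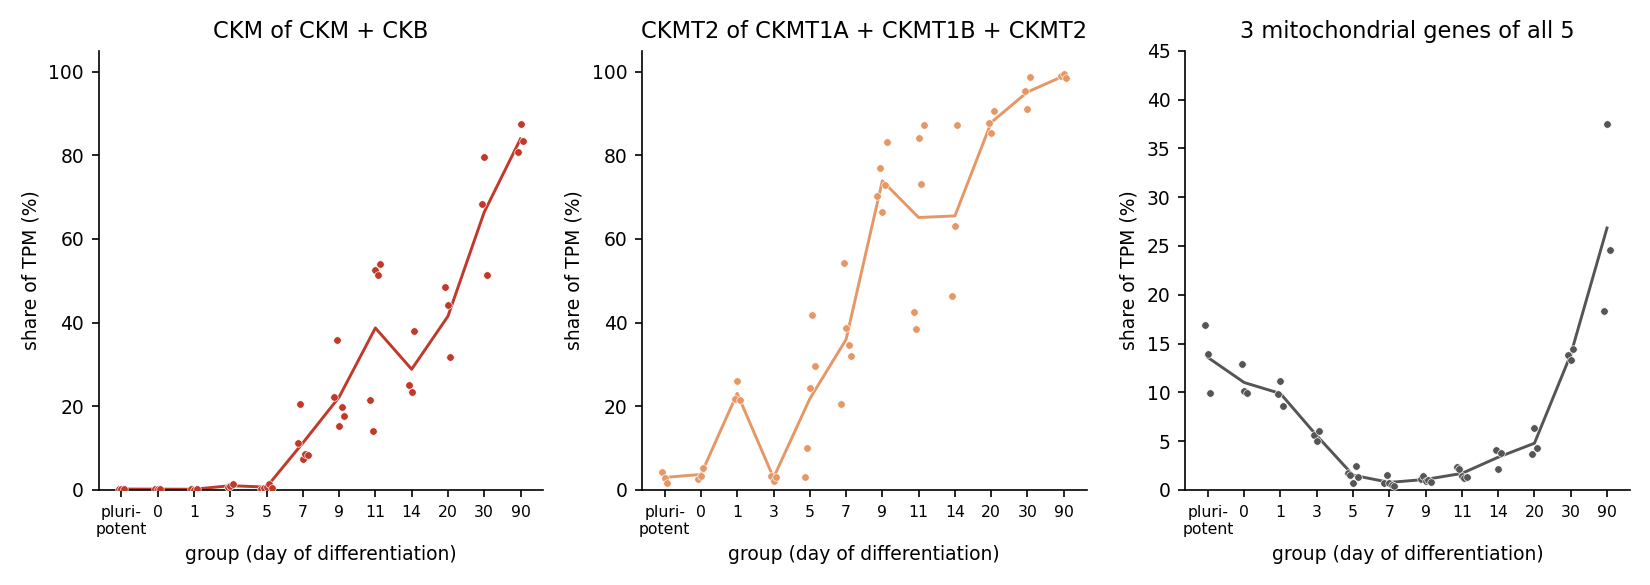
Shares in percent of summed TPM in each library against the 12 groups: CKM of the cytosolic pair, CKMT2 of the mitochondrial kinases, and the mitochondrial kinases of all creatine kinase. Points are wells, lines join group means, and groups are evenly spaced. The CKM share passes 50% in every well of day 30 and day 90, and the CKMT2 share in every well of day 9 and of day 20 to day 90.

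The ubiquitous mitochondrial kinase copies left early. The sum of CKMT1A and CKMT1B was at 60.4, 55.3 and 50.2 CPM in the pluripotent wells and 49.9, 41.2 and 43.8 at day 0. It was at 31.3, 34.4 and 29.0 CPM at day 1, at 9.38, 10.9 and 11.6 at day 3, and at 2.21, 2.00, 0.942, 1.39 and 2.60 at day 5. No 2 of these successive ranges overlapped. From day 5 on, every well lay between 0.602 and 5.63 CPM, and the sum fell by 5.24 on the log2 scale (SE 0.47, edgeR adjusted p = 1.09e-11) from day 0 to day 9.

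Read singly, the copies ran side by side. From day 0 to day 9, CKMT1A fell by 5.38 (SE 0.65) and CKMT1B by 5.10 (SE 0.43). From day 3 to day 5 CKMT1A fell by 2.53 (edgeR adjusted p = 0.00278) and CKMT1B fell by 2.52 (edgeR adjusted p = 1.28e-05). From day 1 to day 3 the fall was 1.73 for CKMT1A (edgeR adjusted p = 0.0478) and 1.42 for CKMT1B (edgeR adjusted p = 0.0123). The CKMT1A call at that step ended when any 1 of the 6 wells was left out (adjusted p from 0.0584 to 0.145), and the CKMT1B call without day 1 replicate 1 (adjusted p = 0.0589). Summed, the copies fell by 1.57 there (SE 0.49, edgeR adjusted p = 0.0124). Neither copy was called between day 9 and day 90 (0.99 and 0.73).

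The sarcomeric mitochondrial kinase CKMT2 peaked briefly at day 1 and rose mainly after day 9. It was at 0.738, 0.965 and 1.10 CPM at day 0 and at 4.31, 5.05 and 4.23 at day 1, and then at 0.199, 0.186 and 0.226 at day 3. The day 1 wells stood above all wells of day 0 and day 3, on 128 to 157 counts each, whereas the day 3 wells held 5 or 6 counts. CKMT2 rose by 2.27 (SE 0.63, edgeR adjusted p = 0.00720) from day 0 to day 1, the single member called there, against 13.5% of all genes. It fell by 4.44 (SE 0.78, edgeR adjusted p = 2.76e-05) from day 1 to day 3, where 4 members were called against 17.8% of all genes, the others being CKM and both CKMT1 copies.

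CKMT2 stayed low in the day 5 wells (0.0387, 0.160, 0.214, 0.956 and 0.558 CPM, on 1 to 22 counts) and in 4 of 5 day 7 wells (0.477, 2.46, 0.323, 0.236 and 0.453). It reached 2.12, 3.42, 1.62, 2.01 and 1.66 CPM at day 9, all above day 0, yet the change from day 0 to day 9 was not called (1.20, SE 0.59, edgeR adjusted p = 0.0918). With lane as a factor it was called (1.36, adjusted p = 0.0301), as it was when only these groups were fitted (1.23, adjusted p = 0.00569). The climb came afterwards, through 2.29, 1.43, 4.99, 4.09 and 6.49 CPM at day 11, 4.22, 6.07 and 13.4 at day 14 and 11.1, 9.85 and 27.3 at day 20. The wells held 57.1, 48.1 and 42.0 CPM at day 30 and 135, 495 and 176 at day 90. The ranges of day 20, day 30 and day 90 did not overlap in CPM, whereas in TPM those of day 30 (20.7 to 33.2) and day 90 (32.55 to 159) did.

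From day 9 to day 90, CKMT2 rose by 6.96 on the log2 scale (SE 0.56, a 124-fold change, edgeR adjusted p = 1.57e-12). CKMT2 also rose from day 30 to day 90 by 2.45 (SE 0.56, edgeR adjusted p = 0.00463), a step at which 2 members were called against 5.09% of all genes. Without day 90 replicate 4 the long change was 6.18, and the last step was 1.68 (edgeR adjusted p = 0.0645) and not called. That step was also not called by limma on log2 TPM (1.17, adjusted p = 0.0509) or when only these groups were fitted (2.43, adjusted p = 0.174). The step from day 20 to day 30 was called only without day 20 replicate 3 (2.29, adjusted p = 0.0280).

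As a share of mitochondrial creatine kinase TPM, CKMT2 went from 3.70% ± 1.29 at day 0 (SD, n = 3) to 73.9% ± 6.42 at day 9 (n = 5) and 99.0% ± 0.535 at day 90 (n = 3). CKMT2 exceeded the CKMT1 sum in 5 of 5 wells at day 9, when both were low, in 3 of 5 at day 11, in 2 of 3 at day 14, and in all wells from day 20. The mitochondrial kinases together made up 11.0% ± 1.64 of all creatine kinase TPM at day 0, 0.771% ± 0.439 at day 7 and 26.8% ± 9.79 at day 90. Between these ends, both mitochondrial isoforms were low at once, from day 5 to day 11, where the highest of the 20 wells reached 2.40%.

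The promoters of the muscle-type genes were read for 3 short motifs within the 250 bases before each start, in RefSeq sequence of GRCh38.p14, which held 7 of the 8 members. The first, TATANA, is like the box bound by the general factors, CAGCTG is an E-box, which muscle factors of the helix-loop-helix family can bind, and CCAAT is bound by factors of many genes. Each was searched on both strands. Forms of the E-box other than CAGCTG were not searched. The windows below are shown because they hold the TATANA and CAGCTG matches of the kinases, which are in capitals. Each is 30 bases long and written on the gene's own strand.
CKM at chr19:45322890-45322919: cctaggtcccccTATATAaggccacggctg
CKM at chr19:45322957-45322986: aggtgagaggctCAGCTGccctccagaact
CKMT2 at chr5:81233164-81233193: aagggcaggtgcTATAAAgggcccagcgcc
CKMT2 at chr5:81233204-81233233: ccttcaagggtaCAGCTGtgggggccggtg
CKB at chr14:103522882-103522911: gaatgaatgggcTATAAAtagccgccaatg
In CKM the TATA-like match begins 32 bases and CAGCTG 99 bases before the start. In CKMT2 they begin 146 and 106 bases before it. In CKB the TATA-like match begins 69 bases before it, and CAGCTG was not found in the 250 bases. These starts are RefSeq's and lie inside the GENCODE genes whose outer ends are given above, by 102 bases in CKM, 37 in CKMT2 and 281 in CKB. CCAAT was found in CKM, CKB, CKMT2, GATM and 1 of the 5 listed starts of CKMT1A, and none of the 3 motifs in SLC6A8 or CKMT1B. The GATM start used lies 23783 bases inside the GENCODE gene, and that CKMT1A start 1054 bases inside. Such letters are common, since TATANA was in 17.7%, CAGCTG in 14.0% and CCAAT in 32.01% of 35116 promoter windows of this length. A match is a description of the sequence and not a measured binding site.

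Of the supply genes, GATM, the first enzyme of creatine synthesis, rose in 1 step and later fell. It was at 16.6, 14.7 and 16.0 CPM at day 0 and at 9.52, 7.02, 5.57, 8.17 and 13.2 at day 5. At day 7 it was at 68.9, 76.3, 70.6, 63.3 and 70.4 CPM, at day 9 at 90.0, 86.5, 85.0, 89.5 and 68.3, and at day 11 at 93.6, 95.2, 96.0, 113 and 127. The day 7 wells were all well above the day 5 wells. GATM rose by 3.01 (SE 0.26, an 8.03-fold change, edgeR adjusted p = 6.50e-11) between these days, the same step as the CKM rise. It then stood at 70.4, 45.7 and 127 CPM at day 20, 45.4, 61.1 and 16.1 at day 30 and 32.7, 30.5 and 29.9 at day 90. The fall from day 9 to day 90 was 1.43 (SE 0.29, edgeR adjusted p = 0.000115), leaving all day 90 wells above the day 0 wells in CPM. In TPM these wells overlapped (4.49, 5.84 and 3.96 at day 90 against 4.37, 4.31 and 4.56 at day 0). The summed hepatocyte and endoderm markers also changed, at 3.41 to 8.18 TPM at day 0, 185 to 581 at day 5 and 104 to 571 at day 7. They stood at 210 to 2121 at day 9, 91.4 to 5197 at day 11, 1764 to 2938 at day 14 and 2.46 to 56.4 at day 90. They were already up at day 5, where GATM was lowest. At day 11, replicates 1 and 2 had the highest sums, and GATM there was below the other wells in CPM (93.6 and 95.2). In TPM it was above them (27.8 and 28.4 against 16.3, 23.0 and 20.8). The part of these markers in the GATM values was not tested. The step from day 20 to day 30 was called (-1.68, edgeR adjusted p = 0.00413) only when the libraries of low depth or RNA integrity, or 1 of them (day 20 replicate 2 or day 30 replicate 10), were left out.

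GAMT, the second enzyme, rose earlier and stayed up. It was at 13.9, 15.3 and 12.6 CPM at day 0, at 8.02, 6.46 and 7.19 at day 1 and at 13.5, 13.7 and 12.0 at day 3. The day 5 wells held 31.4, 35.5, 33.6, 22.2 and 38.0 CPM, all above day 3. GAMT rose by 1.30 (SE 0.24, edgeR adjusted p = 0.000129) from day 3 to day 5, where 3 members were called against 10.1% of all genes, the other 2 being the CKMT1 copies. Later group means ran from 33.9 to 44.9 CPM, and the change from day 9 to day 90 was 0.09. At the step where GAMT rose, GATM stood at -0.99 (edgeR adjusted p = 0.00922), just under the size a call needs.

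SLC6A8, the creatine importer, followed a shallow valley. It was at 127, 158 and 138 CPM at day 0, at 94.8, 88.1 and 104 at day 1 and at 66.0, 64.9 and 56.2 at day 3. Its lowest values came at day 9 (31.5, 37.6, 34.7, 36.0 and 34.7 CPM) and day 11 (29.6, 27.6, 36.7, 29.1 and 37.2). It was at 79.1, 40.2 and 132 CPM at day 30 and at 106, 337 and 134 at day 90, where replicate 4 stood apart. SLC6A8 fell by 2.02 (SE 0.24, edgeR adjusted p = 8.90e-09) from day 0 to day 9. It rose by 2.46 (SE 0.24, edgeR adjusted p = 2.11e-10) from day 9 to day 90, with no overlap in CPM in either case. In TPM the wells of day 9 (4.19 to 17.9) and day 90 (12.3 to 55.4) overlapped, and day 0 had the highest group mean. Limma on log2 TPM gave 1.30 for the rise from day 9 (adjusted p = 0.0216). The step from day 30 to day 90 was called (1.20, SE 0.28, edgeR adjusted p = 0.00522) although the ranges overlapped. Without day 90 replicate 4 it was 0.55 (edgeR adjusted p = 0.162), and without day 30 replicate 10 it was 0.87. Limma on log2 TPM gave 0.18 for that step (adjusted p = 0.799), and a fit of only these groups gave 1.20 (adjusted p = 0.485). The longer change from day 9 was 1.79 without day 90 replicate 4.

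**Figure D3:**
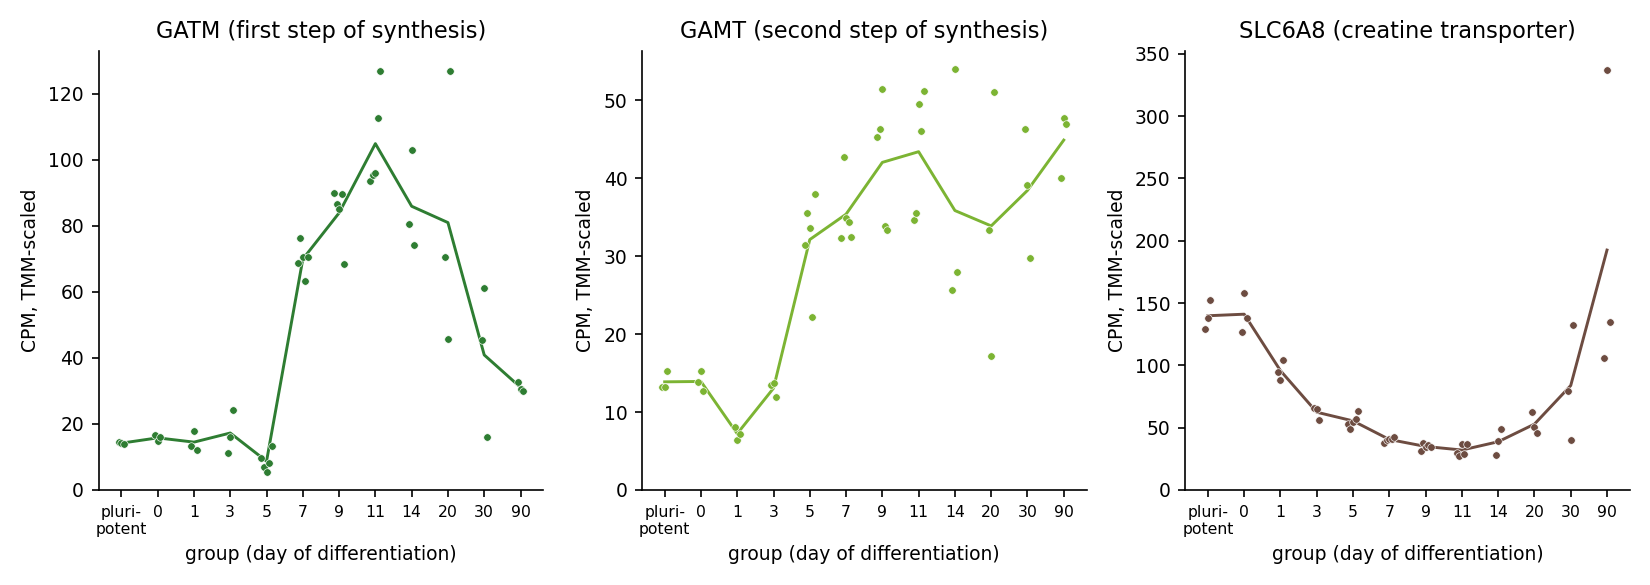
Levels of GATM, GAMT and SLC6A8 in all 44 libraries, with CPM after TMM scaling on a linear axis against the 12 groups. Points are wells, lines join group means, and groups are evenly spaced. GATM steps up at day 7 and its means decline after day 11, GAMT steps up at day 5 and holds, and SLC6A8 is lowest at day 9 and day 11.

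Read across the whole course, 6 of the 8 members were called between day 0 and day 9, against 31.7% of all 22955 genes. CKM, GATM and GAMT rose (17.1% of all genes did), and CKMT1A, CKMT1B and SLC6A8 fell (14.6% did). Between day 9 and day 90, 5 of 8 were called, against 23.9% of all genes, with CKM, CKMT2 and SLC6A8 rising (11.9% of all genes did) and CKB and GATM falling (12.0% did). CKM was called higher over both spans. CKMT2 was called higher over the second, and its change over the first, 1.20, was called with lane as a factor (1.36, edgeR adjusted p = 0.0301) or when only these groups were fitted (1.23, adjusted p = 0.00569). GATM and SLC6A8 moved one way and then the other. Between neighbouring groups, no member was called from the pluripotent group to day 0 (2.91% of all genes), nor at the steps that end at day 9 (1.28%), day 11 (1.63%), day 14 (0.697%) and day 20 (0.0479%). At an unadjusted p under 0.05, edgeR gave 0 members at the first and the last of these 5 steps and 2 at each of the other three. DESeq2 called 1 member over these 5 steps, CKM at day 11, and limma on log2 TPM called 0.

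**Figure D4:**
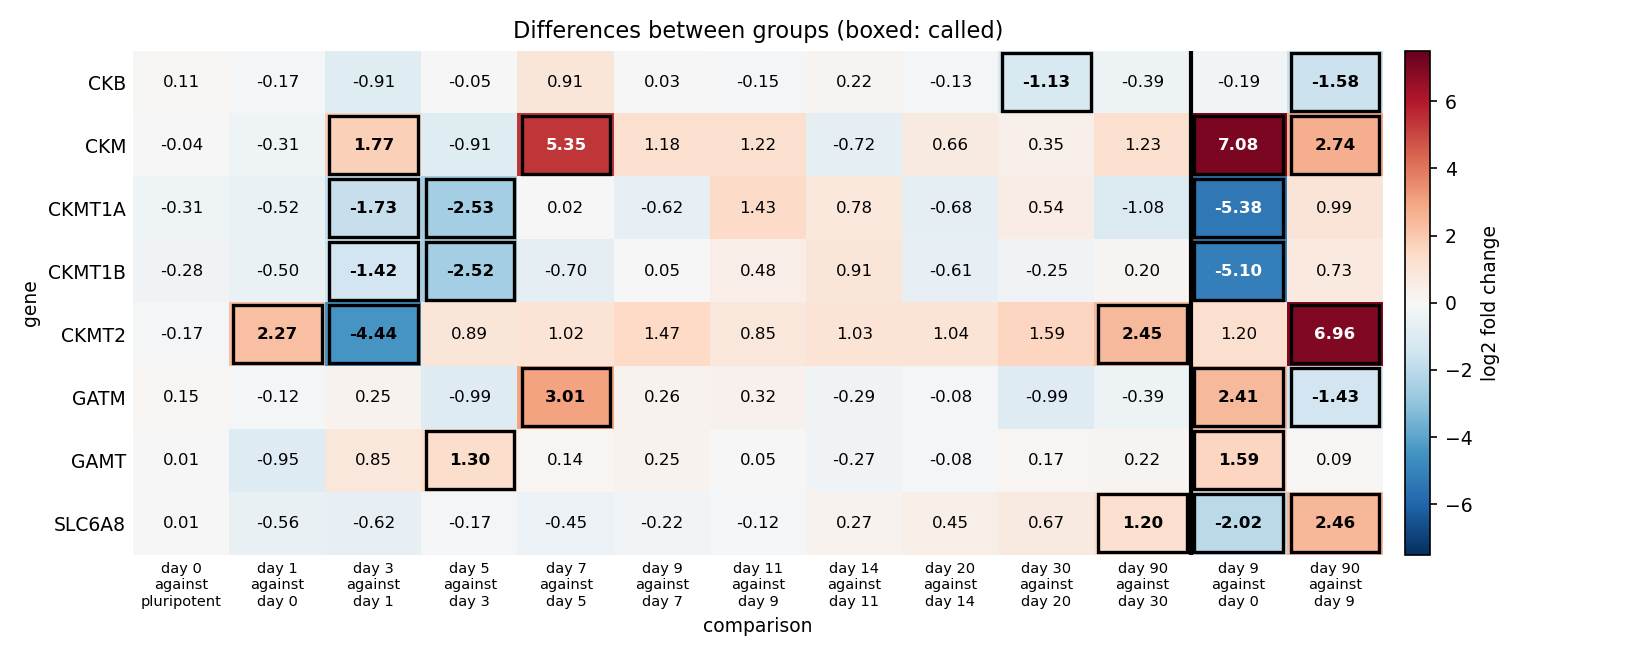
Log2 fold changes of the 8 members (rows) in the 13 comparisons (columns), as colour and as numbers, with called changes boxed and the 2 long spans at the right. The calls lie at the steps from day 0 to day 7 and after day 20, with none at the 4 steps between day 7 and day 20.

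The order of the group means leaves many neighbours unresolved. Of the 11 pairs of neighbouring groups in each member's order, the well ranges were apart in 1 for CKB, 2 for CKM, CKMT1A, GAMT and SLC6A8, 3 for CKMT2 and GATM, and 4 for CKMT1B. For CKB the single gap lay between day 3 (109 ± 7.71 CPM, SD, n = 3) and day 11 (181 ± 18.9, n = 5).

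Other genes of creatine and phosphate metabolism were read from 4 lists. Of 16 genes of arginine, glycine and S-adenosylmethionine supply and their by-products, 2 rose and 4 fell from day 0 to day 9 (6 called, where 31.7% of all genes were), with a median log2 change of -0.62 against 0.08 over all tested genes. ARG1, which splits arginine, rose from 0.0445 to 5.21 CPM (edgeR adjusted p = 1.60e-05), a start under the floor of 3 counts, so that no fold is given. The hepatocyte and endoderm markers given beside GATM moved with ARG1, and their part in its values was not tested. MAT1A rose by 2.17 (edgeR adjusted p = 0.0283), from 1.43 to 6.43 CPM, where the SD at day 9 was 9.54, above the mean. GNMT, a glycine methyltransferase, fell by 2.00, from 0.854 to 0.208 CPM, both low levels. From day 9 to day 90, 2 rose and 3 fell (median -0.33 against -0.02, with 23.9% of all genes called). GLDC, which breaks glycine down, fell by 7.28 (55.7 to 0.372 CPM), ARG1 fell back to 0.0651 CPM, and the mitochondrial arginase ARG2 rose by 2.60 (27.8 to 169 CPM, edgeR adjusted p = 3.91e-09).

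Adenylate kinases, a second route of phosphate transfer, gave 2 higher and 2 lower among 11 tested genes of adenylate kinase and AMP deaminase from day 0 to day 9 (median 0.41), beside 17.1% and 14.6% of all genes. AK1, the cytosolic muscle and brain form, rose by 1.93 (11.1 to 42.4 CPM, edgeR adjusted p = 9.82e-09), and AK5 fell by 3.52. From day 9 to day 90 a single gene of the list was called, AMPD2, which fell by 1.08, where 12.0% of all genes fell. Of 6 tested genes of mitochondrial ATP and ADP channels, 1 was called in the first span and 2 in the second, all of them higher (medians 0.09 and 0.24), beside 17.1% and 11.9% of all genes called higher. SLC25A4, the heart and muscle ADP/ATP carrier, rose in both, by 1.24 (43.6 to 103 CPM, edgeR adjusted p = 0.00139) and by 2.42 (to 548 CPM, edgeR adjusted p = 2.59e-08). Of 7 regulators of mitochondrial energy genes, 4 rose and 1 fell in the first span, and 3 were called in the second, all higher (medians 2.30 and 0.88), beside the same shares of all genes. The coactivator PPARGC1A rose by 3.55 in the first (3.24 to 38.0 CPM, edgeR adjusted p = 1.77e-08), and the nuclear receptor ESRRG rose in both, by 2.74 and 1.48.

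Across all 44 libraries, the genes most like the members in log2 CPM were ranked among 7639 genes by Pearson's r, as a description without a test, since wells of a group share their condition. Those nearest to CKM were the sarcomere genes MYBPC3 (0.988), SMPX (0.986) and MYL3 (0.985). CKMT2 was nearest to SOD2 (0.946), the mitochondrial superoxide dismutase, and CKB to GALNT2 at 0.838. GATM was nearest to CAPN3 (0.873) and MYH6 (0.872), the atrial myosin heavy chain. The CKMT1 sum was nearest to INTS13 (0.952) and GAMT to SMTNL2 (0.926).

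Marker levels moved with several of these values. At day 11, the summed TPM of hepatocyte and endoderm markers was 2968 and 5197 in replicates 1 and 2 and 106, 120 and 91.4 in replicates 5, 6 and 7. The cardiomyocyte sum was 4177 and 2546 in the first pair and 5590, 6110 and 5111 in the others. In CPM, CKM and CKMT2 were lower, and the CKMT1 sum higher, in that same pair. In TPM this held for CKM and the CKMT1 sum, whereas CKMT2 overlapped (1.81 and 1.30 against 2.03, 1.49 and 2.14). The marker sums, in TPM, are not on the scale of the CPM values. CKB was at 139 and 134 TPM (164 and 162 CPM) in the pair, and at 77.8, 83.4 and 80.9 TPM (200, 179 and 202 CPM) in the others. At day 90, replicate 4 had the highest CKM, CKMT2 and SLC6A8. Its cardiomyocyte sum was 10669 against 4950 and 4814 in the other 2 wells, and its fibroblast sum 74.2 against 430 and 234. Its hepatocyte and endoderm sum was also higher, at 56.4 against 2.64 and 2.46. The part of other cells in these results was not tested.

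**Figure D5:**
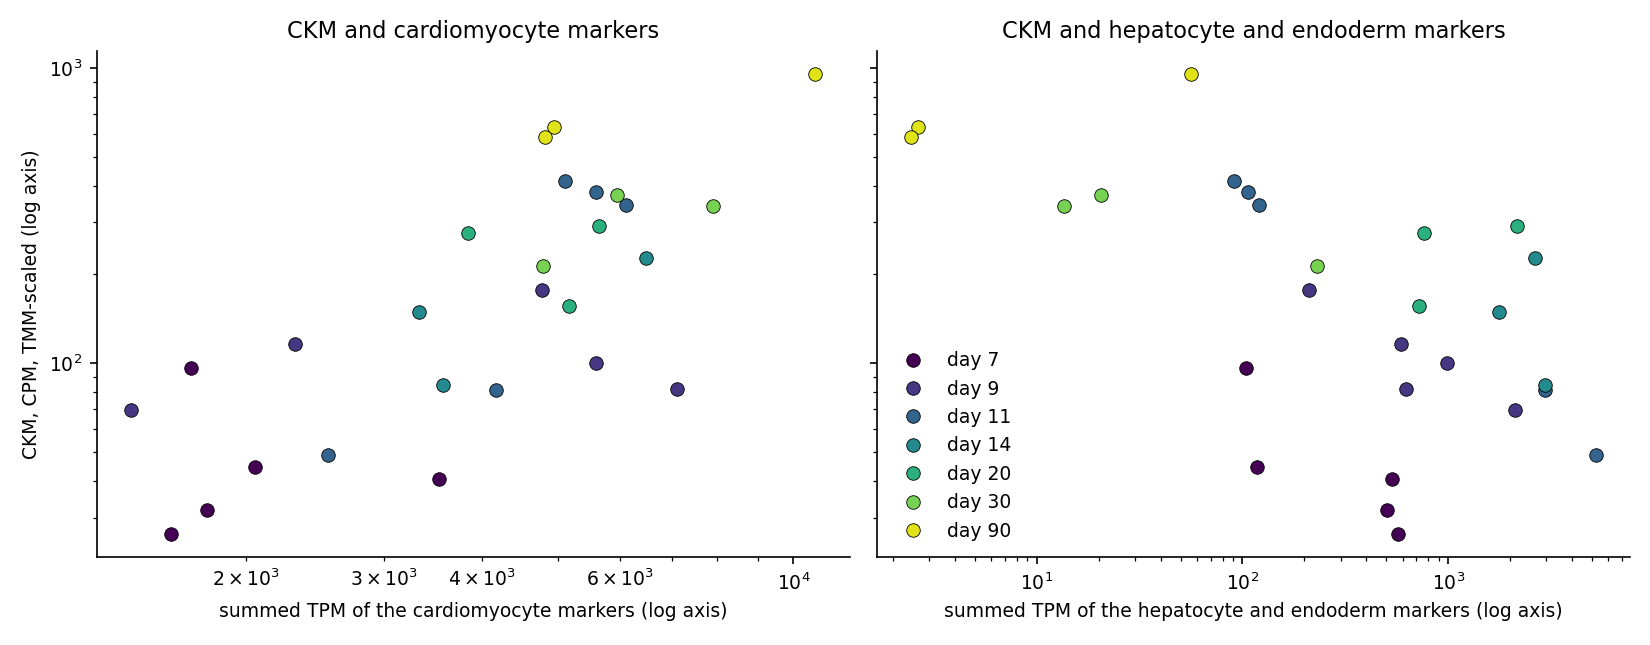
CKM in CPM after TMM scaling against the summed TPM of cardiomyocyte markers (left) and of hepatocyte and endoderm markers (right), on log axes, with 1 point per well of day 7 to day 90 coloured by group. The 2 day 11 wells with hepatocyte and endoderm sums of 2968 and 5197 TPM lie at 81.4 and 49.0 CPM of CKM, below the other 3 wells of that day.

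Libraries of different groups shared sequencing lanes, and in the pluripotent, day 0 and day 1 wells CKM reached 0.254% to 0.866% of the mean of the other libraries in the same lane. The part of lane mates' reads in these low values was not tested. For CKMT2 the day 1 wells stood at 41.7% to 123% of their lane mates' mean, and the day 3 wells at 1.87% to 5.00%.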

How the data were processed

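Total RNA of 44 wells, 1 library each, was made into stranded total RNA libraries and sequenced as paired 150-base reads, per the labels' protocols. The submitters' processing notes name cutadapt, STAR 2.5.2b, RSEM 1.2.31 and hg38, without saying which role each had. The authors deposited estimated counts per gene, of which 93.8% were whole numbers, and TPM, which corrects for gene length. The RNA integrity number, a score, and the lane and sequencing batch of each library were also deposited by the authors. The sequencing batch was not used here. The gene annotation used and the strand setting were not given in the sources used here. Of the 60499 identifiers, 56769 were matched to GENCODE 29.

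Estimated counts were rounded, filtered by edgeR 4.0.16 (filterByExpr by group, R 4.3.3), scaled by TMM and fitted as 12 group means over all 44 libraries, which share 1 estimate of spread. Totals of 6937136 to 33498022 limited the precision. The quasi-likelihood test was made for 11 steps between neighbouring groups and for day 9 against day 0 and day 90 against day 9, with Benjamini-Hochberg adjustment over 22955 genes. A call needed an adjusted p under 0.05 and a log2 change of at least 1. Comparisons with a common group share its libraries. Ranges are of wells, and ± is the SD. The SE of a log2 change is its absolute value divided by the square root of the quasi-likelihood F. Such an SE rests on the spread over all 12 groups, and not on the wells compared alone. Counts of the day 9 against day 0 design were simulated for 22955 genes, with spread from the fitted trend. Of these genes 200 were changed, drawn only from those above a minimum mean count, so recovery at low counts was not measured. Of the 4-fold changes 94% were called. Of the 2-fold changes 49% had an adjusted p under 0.05 by edgeR in the right direction, without the size a call needs. Of the unchanged genes 3 were called.

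The members were named by symbol, and the members, the 4 pathway lists and the 8 marker lists were chosen with earlier results of these data known. From the lists, up to 3 called genes with the largest change per comparison could be named, and for likeness the 3 genes with the highest Pearson's r among those with a TPM of at least 10 in 1 group mean. The likeness of SLC6A8 is not reported here. Alternatives were DESeq2 1.42.0, limma 3.58.1 on log2(TPM + 1), RLE scaling, no filter or a stricter one, lane as a factor, the replicate number as a block, fits of only the groups compared, the summed CKMT1 copies and each well left out. No libraries differed by as little as sampling noise. Sequences came from GENCODE 29 transcripts and RefSeq promoters (GRCh38.p14).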

Additional observations from a re-analysis of the deposited data

Results flagged for a closer look

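In groups of 5 wells, 48 combinations of member, sum or share and group were examined for a single well far from the others (a gap of over 0.71 of the group's range), which chance alone gives in about 1 of 20 groups, and 9 were found. Of these, 6 were day 7 replicate 10. That well had 96.5 CPM of CKM (26.3 to 44.4 in the other 4), 2.46 of CKMT2 (0.236 to 0.477), 2.38 of CKMT1A (0.318 to 0.662), 3.36 of the CKMT1 sum (0.786 to 1.11), 42.8 of GAMT (32.4 to 34.9) and a CKM share of 20.5% (7.37% to 11.2%). Day 9 replicate 10 had 3.42 CPM of CKMT2 (1.62 to 2.12 in the others). Day 9 replicate 4 was low in GATM, at 68.3 CPM (85.0 to 90.0). Day 11 replicate 1 had 4.05 CPM of CKMT1A (0.621 to 1.20), and was also 1 of the 2 wells of that day with a high sum of hepatocyte and endoderm markers. The part of that sum in the value was not tested.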

How the results depend on the processing

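The early span (day 9 against day 0) had 6 members called and the late span (day 90 against day 9) had 5. The counts were also 6 and 5 with any 1 well left out, under RLE scaling, DESeq2, limma on log2 TPM, no filter or a stricter filter, and without the 3 libraries of low depth or RNA integrity, an alternative chosen after seeing the data. Lane as a factor gave 7 and 5, as did fitting only the groups compared, and counting the CKMT1 copies as 1 gave 5 and 5. Calls over the 11 steps between neighbouring groups were 13, or 10 to 15 with 1 well left out, 15 with lane as a factor, 14 by DESeq2, 11 when only the groups compared were fitted and 7 by limma on log2 TPM, which did not call CKM or CKMT1B at day 3, GAMT at day 5, CKB at day 30, or CKMT2 or SLC6A8 at day 90. The pseudocount in that fit shrinks changes of low genes, and it gave 4.58 for CKM from day 0 to day 9. In no comparison with 3 or more shared replicate numbers were all correlations of deviations above 0.1, and the main fit left the number out. Yet the 2 correlations were 0.611 and 0.553 at the step ending at day 20, and 0.342 and 0.102 at that ending at day 14. The other comparisons with 2 shared numbers each had a correlation under 0.1. At the step ending at day 9 the 5 values ran from 0.0546 to 0.454, the highest for replicate 10. Pairing of wells by number was thus not settled for these steps. With the number as a block 17 step calls were made, with 6 and 5 over the long spans. Among the step calls were CKM (1.26) and CKMT2 (1.69) at day 9 and CKB (1.06) at day 7. No called change turned its direction under any alternative.

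Shares of estimated counts, which leave out gene length, differed from shares of TPM. For day 0, day 9 and day 90 in turn, the CKM share became 0.344%, 34.4% and 91.3%. The CKMT2 share became 2.07% and 64.5% for the first pair of days, and the mitochondrial share 16.7% for the first. With 1 well left out, and in the same order of days, the CKM share ran from 0.167% to 0.212%, 18.8% to 23.9% and 82.2% to 85.5%. The CKMT2 share ran from 2.97% to 4.20%, 71.6% to 75.8% and 98.7% to 99.2%, and the mitochondrial share from 10.1% to 11.5%, 0.989% to 1.13% and 21.5% to 31.1%. Depth limits CKM before day 7 to 8 to 81 counts per well and CKMT2 at day 3 and day 5 to 1 to 22.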
